A study of Rattus norvegicus with 36 samples.

Results

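Acute-phase protein genes encode secreted proteins whose blood level changes during inflammation, and 10 of them, Orm1, Saal1, Hp, Lcn2, A2m, A2ml1, Itih1, Itih4, Lbp and Cp, were followed in rat lung of animals given DQ-12, a dust of crystalline silica. They were taken by gene name from the array's non-control probes, on which 12 probes carry 1 of the 10 names, out of 45598 probes and 25597 gene names. The 10 genes were chosen with the DQ-12 differences of these same rats in view, so those differences are given as a description, without p values. All 10 passed the filter on low signals and were among the 23940 genes tested, but A2ml1, Itih1 and Orm1 were well above background on only 5, 14 and 26 of the 36 arrays.

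The rats were female Sprague Dawley animals aged 13 weeks at instillation. The exposed rats received 10 mg of DQ-12 per rat through the trachea and the control rats the vehicle without the dust, and the accessory lobe of the lung was taken at D1, D30 or D180. Each of the 6 groups (DQ-12 and vehicle at each time) held 6 rats, and the RNA of each rat was labeled with Cy3 and hybridized to its own single-color Agilent array. Signals are given on a log2 scale after quantile normalization, so that 1 unit is a factor of 2, and a difference is DQ-12 minus vehicle. A gene was counted as a differentially expressed gene (DEG) when it differed by 2-fold or more with an adjusted p below 0.05 (limma, with the Benjamini–Hochberg method over the 23940 genes).

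The acute-phase response is best known from the liver, where interleukin-6 family cytokines act through STAT3, and interleukin-1 and TNF act through NF-kappaB and C/EBP factors, to raise the transcription of such genes. Several of them are also transcribed in the lung, by epithelial cells, macrophages and neutrophils. The proteins bind iron, heme, lipids or bacterial products, block proteases, or stabilize the hyaluronan matrix.

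An array signal stands for the 60 bases of its probe. The probes of Orm1 (chr5:80326525-80326584), A2m (the dimmer of its 2 probes, chr4:158152488-158152951), Itih1 (chr16:6364526-6364585) and Cp (the dimmer of its 2, chr2:105129736-105130152) are shown because results turn on them, with positions as the files give them under a header that names rn4. The Itih4 probe (chr16:6334720-6334779) lies close to that of Itih1, on the opposite strand. The A2m and Cp probes span more genome than their 60 bases. Each of the printed probes holds at least 1 reading frame without a stop codon.
Orm1: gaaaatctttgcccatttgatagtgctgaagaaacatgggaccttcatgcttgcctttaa
A2m: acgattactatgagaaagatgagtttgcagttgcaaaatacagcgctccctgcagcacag
Itih1: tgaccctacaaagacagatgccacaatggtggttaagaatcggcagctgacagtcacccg
Cp: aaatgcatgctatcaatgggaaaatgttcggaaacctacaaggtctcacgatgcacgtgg

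The probe named Saal1 (chr1:97248442-97248501) needs care. Its accession, a predicted mRNA that the array calls serum amyloid A-like, was not among the transcripts of the RefSeq table of GRCr8. That table lists Saal1 as an older name of Saa3 and also gives the symbol Saal1 to the neighboring gene with ID 691143. The array carries this ID in the name of another gene, LOC691143, whose brighter probe measured 7.78 to 8.25 in vehicle rats and 7.92 to 8.45 in DQ-12 rats at D1. LOC691143, named here after its values were seen, differed by 0.23 at D1 (adjusted p = 0.146, limma), 0.30 at D30 (adjusted p = 0.118) and -0.13 at D180 (adjusted p = 0.485). Which gene the Saal1 probe reads is not settled here, and the name is kept as the array gives it.

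RefSeq promoters of GRCr8 were at hand for 7 of the 10 genes. In the 250 bases before the start site, the C/EBP-type letters TTNNGNAA were found on either strand in 5 of the 7 (37.2% of all 33465 promoters), the TATA-type letters TATAAA in 4 (12.9%), the STAT-type letters TTCNNNGAA in 1, Itih4 (7.67%), and an NF-kappaB-type motif in 0 (1.3%). The promoters of Orm1 (chr5:81788259-81788508, plus strand), Itih4 (chr16:6086735-6086984, plus strand) and Saa3 (chr1:106358431-106358680, minus strand) are shown as those of the largest difference, of the STAT-type match, and of the gene that RefSeq ties to the older name Saal1. The Saal1 promoter among the 7 is that of gene 691143, which held none of the 4 motifs, whereas the Saa3 promoter, not counted among the 7, held the C/EBP-type letters. Capitals mark every match, and matches on both strands of the same bases or overlapping matches form 1 run of capitals.
Orm1: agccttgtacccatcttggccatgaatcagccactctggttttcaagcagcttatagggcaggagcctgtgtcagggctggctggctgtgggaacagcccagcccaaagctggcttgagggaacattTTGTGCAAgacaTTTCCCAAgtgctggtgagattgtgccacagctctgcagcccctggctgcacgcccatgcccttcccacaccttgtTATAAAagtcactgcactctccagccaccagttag
Itih4: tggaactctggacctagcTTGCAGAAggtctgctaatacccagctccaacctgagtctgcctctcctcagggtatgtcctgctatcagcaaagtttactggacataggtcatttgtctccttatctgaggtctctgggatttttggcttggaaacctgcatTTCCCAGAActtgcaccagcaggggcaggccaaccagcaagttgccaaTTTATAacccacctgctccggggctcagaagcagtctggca
Saa3: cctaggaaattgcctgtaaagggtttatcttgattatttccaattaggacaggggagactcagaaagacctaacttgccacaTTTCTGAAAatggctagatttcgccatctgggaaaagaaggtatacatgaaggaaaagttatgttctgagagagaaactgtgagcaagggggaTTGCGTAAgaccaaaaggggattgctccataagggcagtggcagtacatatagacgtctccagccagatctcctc

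Between 51.4 and 75.5% of the probes were well above background on each array, and no spot was saturated. Across genes, the median r between rats of the same group was 0.973 to 0.981. The 8 lung markers (among them Sftpc, Ager and Scgb1a1) were well above background on every array. Arrays were scanned on 11 dates, none of which held 2 time points, and at D1 a single scan date held both groups, with 1 vehicle rat and 6 DQ-12 rats. At D1, exposure and scan date therefore cannot be told apart for 5 of the 6 vehicle rats, whereas both scan dates of D30 and 2 of 6 at D180 held both groups.

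At D1, 4 of the 10 genes were counted as DEGs, all higher after DQ-12 (Orm1, Saal1, Lcn2 and Itih4), where 2.02% of all genes were higher DEGs. At D30 there were again 4 (Orm1, Saal1, Hp and Itih1; 0.915% of all genes), and at D180 there were 7 (Orm1, Saal1, Hp, Lcn2, A2m, A2ml1 and Itih1; 2.86% of all genes). None of the 10 was a lower DEG at any time, and nothing is read from these counts because the same contrasts chose the genes. Every DQ-12 rat exceeded every vehicle rat for 2 genes at D1, 5 at D30 and 6 at D180 (5.23, 1.81 and 3.82% of all genes). The median log2 difference of the 10 was 0.72, 0.93 and 2.58, against -0.01, -0.02 and -0.03 over all genes, and stayed at these values when dim genes were set at their bound or at 0. Only Orm1 and Saal1 were DEGs at all 3 times. In bulk tissue, fewer cells of a type and less RNA per cell cannot be told apart, and the same holds for more of either.

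**Figure D1:**
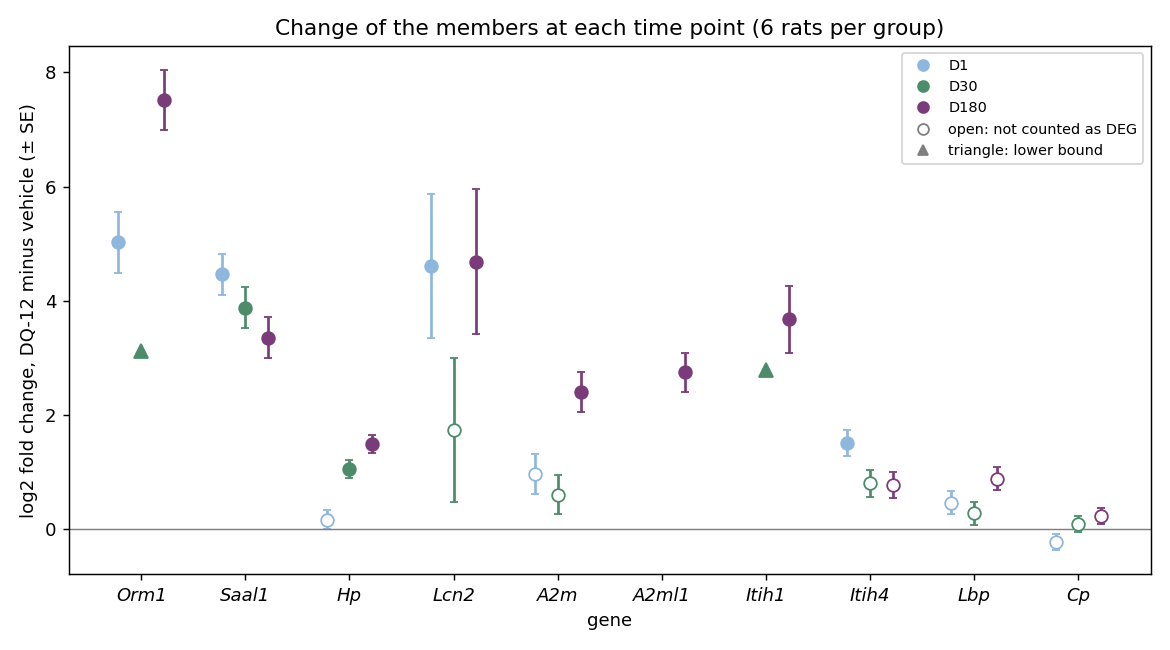
Log2 fold change of each acute-phase protein gene (horizontal axis) at D1, D30 and D180, as the mean of 6 DQ-12 rats minus the mean of 6 vehicle rats with its standard error. Filled symbols were counted as DEGs, triangles are lower bounds where no vehicle array was well above background, and A2ml1 at D1 and D30 and Itih1 at D1 are left out because the DQ-12 group was not well above background. Orm1 reached 7.51 at D180, while Cp stayed between -0.22 and 0.23.

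Orm1 encodes orosomucoid (alpha-1-acid glycoprotein), a lipocalin that carries lipophilic compounds. At D1 its log2 signal ran from 4.72 to 6.18 (median 5.29) among vehicle rats and from 9.93 to 11.50 (median 10.31) among those given DQ-12, a difference of 5.02 (SE 0.53; 32.5-fold). The groups lay far apart, with no DQ-12 rat near the vehicle range. At D30 the vehicle rats measured 2.76 to 4.60 (median 4.05) and the DQ-12 rats 6.36 to 7.82 (median 7.17), which is at least 8.66-fold (means 3.83 and 7.19), since no vehicle array was well above background. At D180 the vehicle rats measured 2.45 to 6.54 (median 3.93; well above background on 2 arrays) and the DQ-12 rats 9.73 to 12.65 (median 12.01), a difference of 7.51 (SE 0.53; 183-fold). The groups were separate at each time, and the DQ-12 rats of D30 all lay below those of D1 and D180. Vehicle signals lay near background, and normexp background correction gave differences of 3.58, 1.37 and 5.07 at the 3 times.

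The Saal1 probe carries a serum amyloid A-like name, with its target unsettled as described, and the inducible serum amyloid A proteins are apolipoproteins of high-density lipoprotein. At D1 it measured 10.70 to 12.02 (median 11.87) among vehicle rats and 15.05 to 16.61 (median 16.12) among those given DQ-12. At D30 the ranges were 8.79 to 9.68 (median 9.58) and 11.77 to 14.05 (median 13.68). The D180 ranges were 9.10 to 10.54 (median 9.70) and 11.55 to 13.92 (median 13.37). All 6 groups were well above background on every array and no DQ-12 rat overlapped the vehicle range at its own time. The differences were 4.47, 3.88 and 3.36 (SE 0.36 each), or 22.1-fold, 14.8-fold and 10.3-fold. Unlike Orm1, Saal1 did not show its largest difference at D180, and its DQ-12 rats at D30 and D180 overlapped each other almost entirely.

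Lcn2 encodes lipocalin 2, which binds bacterial siderophores and is stored in neutrophil granules and made by epithelium. Its rats did not form a single range in any group. At D1, 4 vehicle rats measured 7.47, 7.72, 8.10 and 8.24 and the others 12.46 and 12.75. The DQ-12 rats of D1 measured 10.71, 11.17, 15.17, 15.68, 15.77 and 15.92. The lower DQ-12 rats thus lay under the upper vehicle rats, with an empty step of 4.22 among vehicle rats and of 4.00 among DQ-12 rats. At D30 a single vehicle rat measured 7.06 and 5 others 10.34 to 11.97, whereas 4 DQ-12 rats measured 10.06 to 11.76 and the other 2 measured 15.13 and 15.60. At D180, 5 vehicle rats measured 7.07 to 8.54 and the sixth 12.26, and 3 DQ-12 rats measured 10.51 to 11.68 and 3 measured 15.05 to 15.92. The widest step between neighboring rats was 3.27 to 4.22 in all 6 groups. With this spread, the mean differences of 4.61, 1.74 and 4.69 each had an SE of 1.27, and only 4, 2 and 3 of 6 DQ-12 rats exceeded every vehicle rat. With slide or scan date as a fixed block it was not counted as a DEG at D1 (6.27 and 5.83) or D180 (3.50 and 2.90), although the differences stayed large. On the 5 scan dates that held both groups, the difference was 5.83 at D1 (1 vehicle and 6 DQ-12 rats), -0.96 (4 and 1) and 3.59 (2 and 5) at D30, and 4.45 (3 and 3) and -1.75 (1 and 1) at D180, so that both negative values rest on 1 DQ-12 rat.

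**Figure D2:**
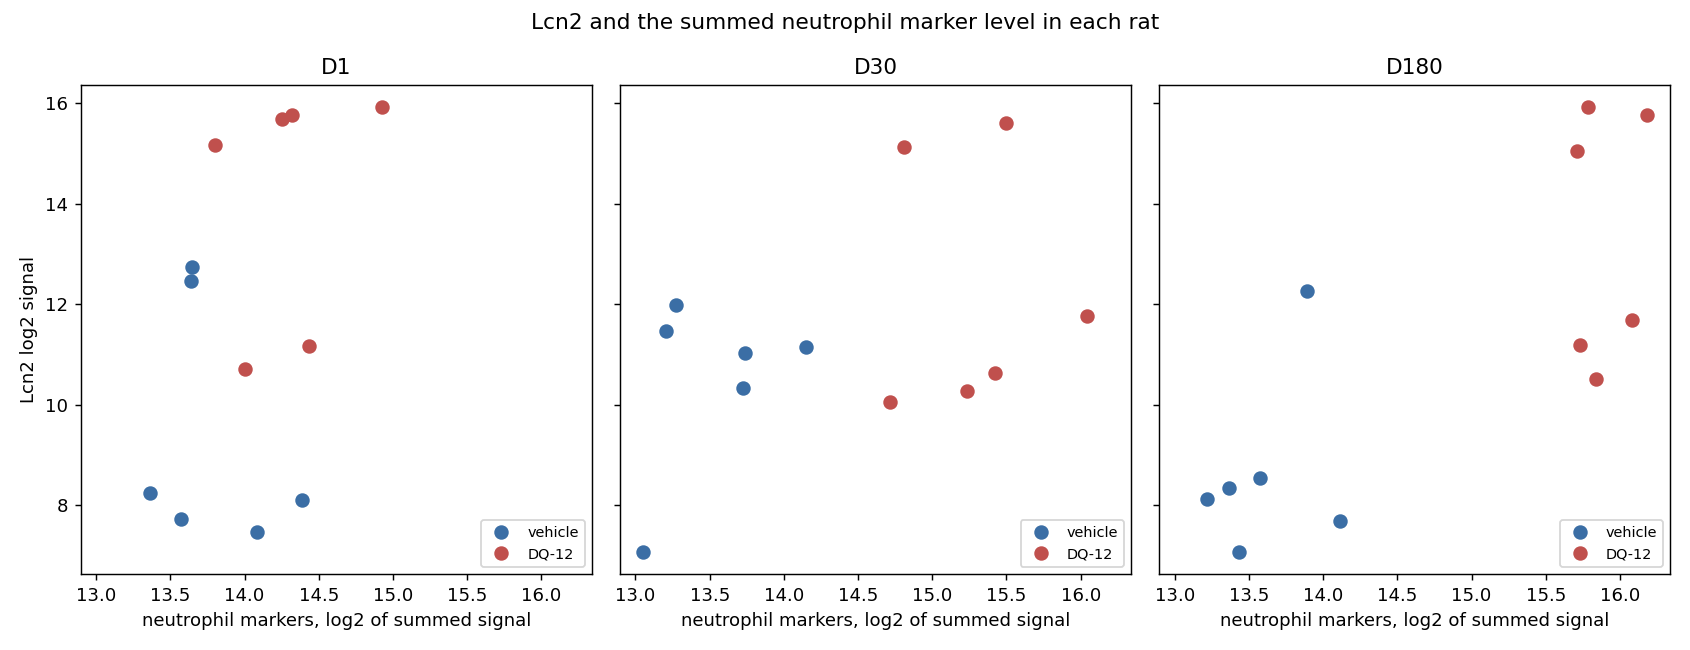
Lcn2 log2 signal (vertical axis) of each rat against the log2 of the summed signal of 10 neutrophil markers (horizontal axis), in separate panels for D1, D30 and D180 with vehicle rats in blue and DQ-12 rats in red. DQ-12 rats at D180 lay between 15.71 and 16.18 on the horizontal axis but spread from 10.51 to 15.92 on the vertical axis.

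Lcn2 was then set beside the neutrophil markers. As deviations from the group means over the 36 arrays, Lcn2 and the summed neutrophil marker level had an r of 0.10, which is given as a description. Over all 36 rats Lcn2 fell into 3 ranges, with 10 vehicle rats at 7.06 to 8.54, 8 vehicle and 9 DQ-12 rats at 10.06 to 12.75, and 9 DQ-12 rats at 15.05 to 15.92. A single probe reads Lcn2 on this array, so no second probe bears on the steps.

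Hp encodes haptoglobin, which captures free hemoglobin for uptake through Cd163. At D1 the vehicle rats measured 11.86 to 12.45 (median 12.24) and the DQ-12 rats 12.09 to 12.65 (median 12.35), and the groups overlapped (difference 0.17, SE 0.16). At D30 the ranges were 11.60 to 12.24 (median 11.93) and 12.72 to 13.42 (median 12.93). The D180 ranges were 11.75 to 12.40 (median 12) and 12.97 to 14.11 (median 13.65). The groups no longer overlapped at either time, with differences of 1.05 and 1.5 (SE 0.16 each). Hp at D30 stood just past the 2-fold threshold, and it fell just short of it without vehicle D30 replicate 6 (0.99), without DQ-12 D30 replicate 6 (0.96) and with slide (0.97) or scan date (0.99) as a fixed block.

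Cp encodes ceruloplasmin, the copper-carrying ferroxidase of plasma. The brighter of its 2 probes matches only transcript variant 2 among the curated transcripts listed for it on the array. Its signals ran from 10.82 to 11.87 over all rats, and the groups overlapped at every time, with differences of -0.22, 0.10 and 0.23 (SE 0.14). The dimmer probe lists both curated variants and gave 0.07, 0.17 and 0.57 (SE 0.13). At D180 this probe measured 9.15 to 9.87 (median 9.68) among vehicle rats and 9.83 to 10.48 (median 10.25) among those given DQ-12, and 5 of 6 DQ-12 rats exceeded every vehicle rat.

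Lbp encodes lipopolysaccharide-binding protein, which passes lipopolysaccharide to CD14. Its differences were 0.47, 0.29 and 0.89 (SE 0.20). At D180 the vehicle rats measured 8.18 to 9.39 (median 8.80) and the DQ-12 rats 8.95 to 10.12 (median 9.72), and 4 of 6 DQ-12 rats exceeded every vehicle rat. At D1, 5 of 6 did. The gene did not reach 2-fold at any time, but passed at D180 without vehicle D180 replicate 5 (1.02) or without DQ-12 D180 replicate 3 (1.02).

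A2m and A2ml1 encode alpha-2-macroglobulin, the classical acute-phase protease inhibitor of rats, and a relative of it. The brighter A2m probe measured 4.01 to 5.74 (median 5.24) among vehicle rats and 5.25 to 6.92 (median 6.05) among those given DQ-12 at D1. At D30 the ranges were 3.65 to 6.01 (median 5.54) and 5.41 to 6.48 (median 5.72). The D180 ranges were 3.55 to 5.27 (median 4.16) and 5.68 to 7.09 (median 6.87). The groups overlapped at D1 and D30 and were separate at D180, with differences of 0.97, 0.61 and 2.41 (SE 0.35). The other probe, whose bases are printed above, gave 1.23, 0.58 and 2.10 (SE 0.46). A2m crossed 2-fold at D1 without vehicle replicate 3 (1.1) or without DQ-12 replicate 2 (1.13), its call at D180 was lost with slide as a fixed block (2.30), and normexp correction gave 1.0 at D180.

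At D1 and D30, no array measured A2ml1 well above background, and its signals ran from 1.90 to 2.94. At D180 the vehicle rats measured 1.91 to 3.42 (median 2.17; well above background on 1 array) and the DQ-12 rats 3.44 to 6.53 (median 5.25; well above background on 4). The lowest DQ-12 rat lay next to the highest vehicle rat, and the difference of 2.75 (SE 0.34) came to 0.66 with normexp correction, where it was no longer counted as a DEG.

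Itih1 and Itih4 encode heavy chains of the inter-alpha-trypsin inhibitor family, which can be bound to hyaluronan and stabilize extracellular matrix. Itih1 was well above background at D1 in a single rat, vehicle replicate 5, at 7.80, while the other vehicle rats measured 2.29 to 3.55 and the DQ-12 rats 2.25 to 4.12. At D30 the vehicle rats measured 2.30 to 3.01 (median 2.75) and the DQ-12 rats 5.75 to 6.90 (median 6.53), at least 6.89-fold higher (means 2.71 and 6.46). At D180 the ranges were 2.24 to 4.61 (median 3.52; well above background on 1 array) and 6.09 to 8.38 (median 7.24), a difference of 3.68 (SE 0.59). Itih1 was therefore separate between groups at D30 and D180 but not well above background in 11 of the 12 rats of D1. Normexp correction gave 1.09 at D30 and 1.38 at D180, and slide as a fixed block ended the call at D180 (3.26).

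Itih4 had its largest difference at D1. At D1 the vehicle rats measured 7.84 to 9.53 (median 8.17) and the DQ-12 rats 9.35 to 10.31 (median 10.07), a difference of 1.51 (SE 0.23). The differences at D30 and D180 were 0.80 and 0.77 (SE 0.23), below 2-fold, although at D30 the DQ-12 rats (8.62 to 9.10, median 8.76) lay wholly above the vehicle rats (7.73 to 8.14, median 8.0). The D1 difference came to 0.36 within slides and 0.42 within scan dates, each as a fixed block, and was then not counted as a DEG. These 2 values rest on 1 vehicle rat, since a single one shared a slide or scan date with DQ-12 rats at D1.

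The differences were also taken within single scan dates that held both groups. At D1, 1 vehicle rat against 6 DQ-12 rats gave 4.57 for Orm1 and 4.18 for Saal1. At D30, 4 vehicle rats against 1 and 2 against 5 gave 2.44 and 3.97 for Saal1 and 1.02 and 0.97 for Hp. At D180, 3 against 3 and 1 against 1 gave 6.33 and 9.997 for Orm1, 3.17 and 4.55 for Saal1, 1.54 and 1.95 for Hp, 2.34 and 2.32 for A2m, 2.72 and 4.59 for A2ml1 and 3.85 and 4.74 for Itih1. All of these were positive, but Lcn2 and Itih4 are not among them. As given above, Lcn2 had 5.83 at D1 and 4.45 and -1.75 at D180, and Itih4 had 0.42 at D1. For A2ml1 and Itih1, no vehicle rat on these D180 dates was well above background. The same held for Orm1 on the 1 against 1 date. These D180 differences rest on vehicle signals near background, so their sizes are uncertain.

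**Figure D3:**
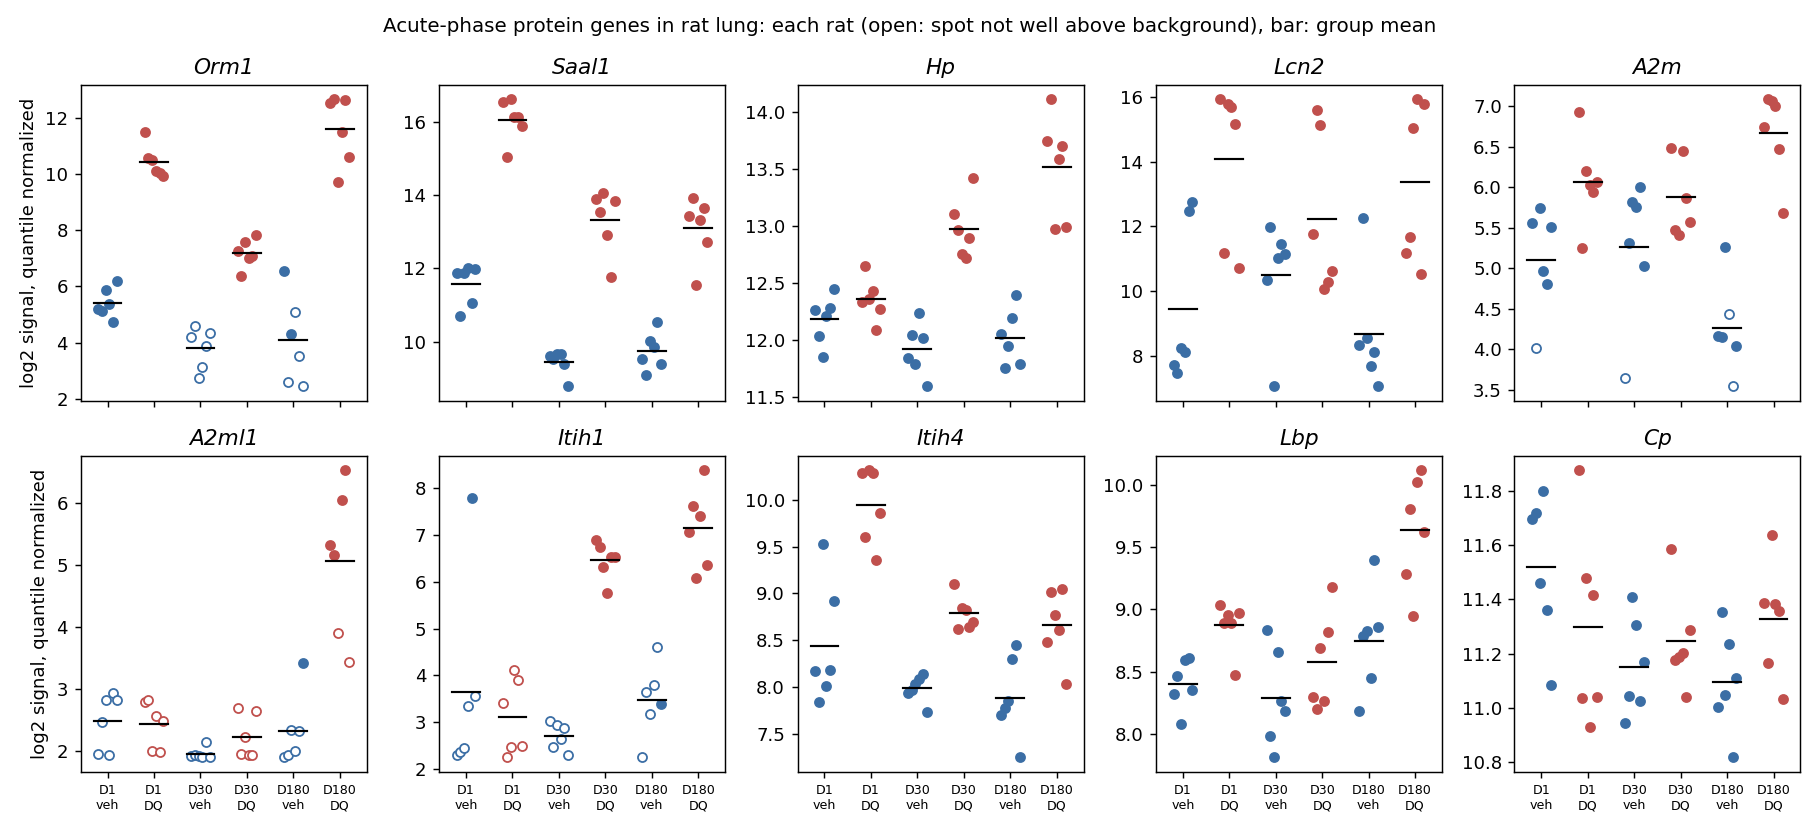
Log2 signal (vertical axes, quantile normalized) of the 10 genes in each of the 36 rats, grouped by time and by vehicle (veh, blue) or DQ-12 (DQ, red), with the group mean as a bar and open circles where a spot was not well above background. Orm1 and Saal1 stand apart at every time, the Lcn2 points split within each group, and the single high vehicle rat of Itih1 at D1 is at 7.80.

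Vehicle rats alone were compared between times, a contrast that did not itself choose the genes. Their values are part of the DQ-12 differences that did, so the p values are not free of that choice. The median of the 10 genes was -0.41 for D30 minus D1 and -0.49 for D180 minus D1, against 0.04 and 0.01 over all genes. Saal1 was the only 1 of the 10 to pass, and its vehicle level was highest at D1, 1 day after instillation. It was lower at D30 by a log2 difference of -2.14 (SE 0.36, adjusted p = 0.000506, limma) and at D180 by -1.85 (SE 0.36, adjusted p = 0.00125). No vehicle rat of D30 or D180 reached the lowest of D1 (10.70). Of all genes, 2.74% and 1.74% passed in these contrasts. With scan date as a random block the adjusted p was 0.028 and 0.0103, respectively (limma). No scan date held more than 1 time, so time after instillation, age and scan date cannot be told apart in these contrasts. A random block does not separate them. Orm1 in vehicle rats differed by -1.59 (SE 0.53, adjusted p = 0.0636, limma) between D30 and D1, and passed at -2.05 with 75th percentile scaling (adjusted p = 0.00815, limma). No vehicle array of D30 was well above background for Orm1, so the size of this change is uncertain. Cp was lower at D180 than at D1 by -0.42 (SE 0.14, adjusted p = 0.0474, limma), under the 2-fold threshold. Between D180 and D30, 0 of the 10 genes passed (2.7% of all genes), with 2 at an unadjusted p under 0.05 in limma, A2m at -1.0 (adjusted p = 0.058) and Lbp at 0.46 (adjusted p = 0.141).

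The genes most like each member over the 36 arrays were named by Pearson's r, as a description in which all points share groups, arrays and normalization. Orm1 ran with Fetub, Chi3l1 and Ccl2 (r 0.93, 0.93 and 0.92), the last a chemokine for monocytes. Saal1 ran with Hjurp, Rrm2 and Ccna2 (0.93, 0.93 and 0.92), which serve cell division, and Hp with Trem3, Ccl1 and Lpo (0.92, 0.92 and 0.91). Itih4 ran with Cthrc1, Tmem54 and Chaf1b (0.92, 0.91 and 0.88). The profiles closest to Itih1 were Col9a2, Ceacam4 and Ctss (0.86, 0.85 and 0.84), to Lbp Atp6v0b, Ctsz and Crlf2 (0.86, 0.85 and 0.82), to A2ml1 Zfand2a, Eri3 and Clec6a-ps1 (0.87 each), and to A2m Il4i1, Fcgr2b and Sh2b2 (0.83, 0.81 and 0.81). Lcn2 and Cp had no close counterpart. For Lcn2, Cyp51 and Ccr1 were among the highest (0.70 and 0.69), and for Cp the highest were Slc26a2, LOC102547720 and LOC102548928 (0.66, 0.65 and 0.62). Among the members themselves the closest were Saal1 and Itih4 (r 0.88 over the arrays, 0.45 within groups) and Hp and Itih1 (0.83 and 0.32).

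Of 39 other positive acute-phase genes listed, 32 were tested, and 7, 10 and 20 of them were higher DEGs at D1, D30 and D180 (2.02, 0.915 and 2.86% of all genes), with medians of 0.39, 0.69 and 1.14. This list and those that follow were chosen with earlier results of these data known. Their counts and p values are therefore given as a description. At D1 the largest were the protease inhibitor gene Serpina3n (2.23, SE 0.31, adjusted p = 4.64e-06, limma), the kininogen gene Kng2 (1.52, SE 0.21, adjusted p = 3.49e-06), Mbl1, a mannose-binding lectin (1.24, SE 0.26, adjusted p = 0.00105), and Kng1 (1.15, SE 0.18, adjusted p = 1.78e-05), a close relative of Kng2 that may share signal with it. None of the list's D1 DEGs remained with scan date as a fixed block, where the number was 0. At D30 the largest were complement C3 (2.04, SE 0.16, adjusted p = 1.33e-10, limma), S100a9 (1.93, SE 0.25, adjusted p = 4.84e-06), Ptx3, which encodes a long pentraxin (1.89, SE 0.22, adjusted p = 1.11e-06), and Hpx, the heme-binding hemopexin (1.43, SE 0.22, adjusted p = 7.35e-05). At D180 they were Il1rn, the interleukin-1 receptor antagonist (2.57, SE 0.16, adjusted p = 2.85e-13), S100a9 (2.57, SE 0.25, adjusted p = 4.88e-09), Itih3 (2.15, SE 0.22, adjusted p = 8.24e-09) and Kng2 (1.91, SE 0.21, adjusted p = 3.78e-08). Vtn, which encodes vitronectin, was the 1 lower DEG, at D180 (-1.07, SE 0.11, adjusted p = 7.54e-09). Saa4, a serum amyloid A gene with a probe of its own name, rose at D180 (1.39, SE 0.22, adjusted p = 1.76e-05), whereas the liver pentraxin gene Crp had 0.31 (SE 0.38, adjusted p = 0.658) and was well above background on 1 vehicle and 4 DQ-12 arrays. Of the 3 fibrinogen chain genes, Fga and Fgb were well above background on at most 1 array of any group, and Fgg had 0.94 at D30 (SE 0.14, adjusted p = 6.09e-05), under 2-fold.

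**Figure D4:**
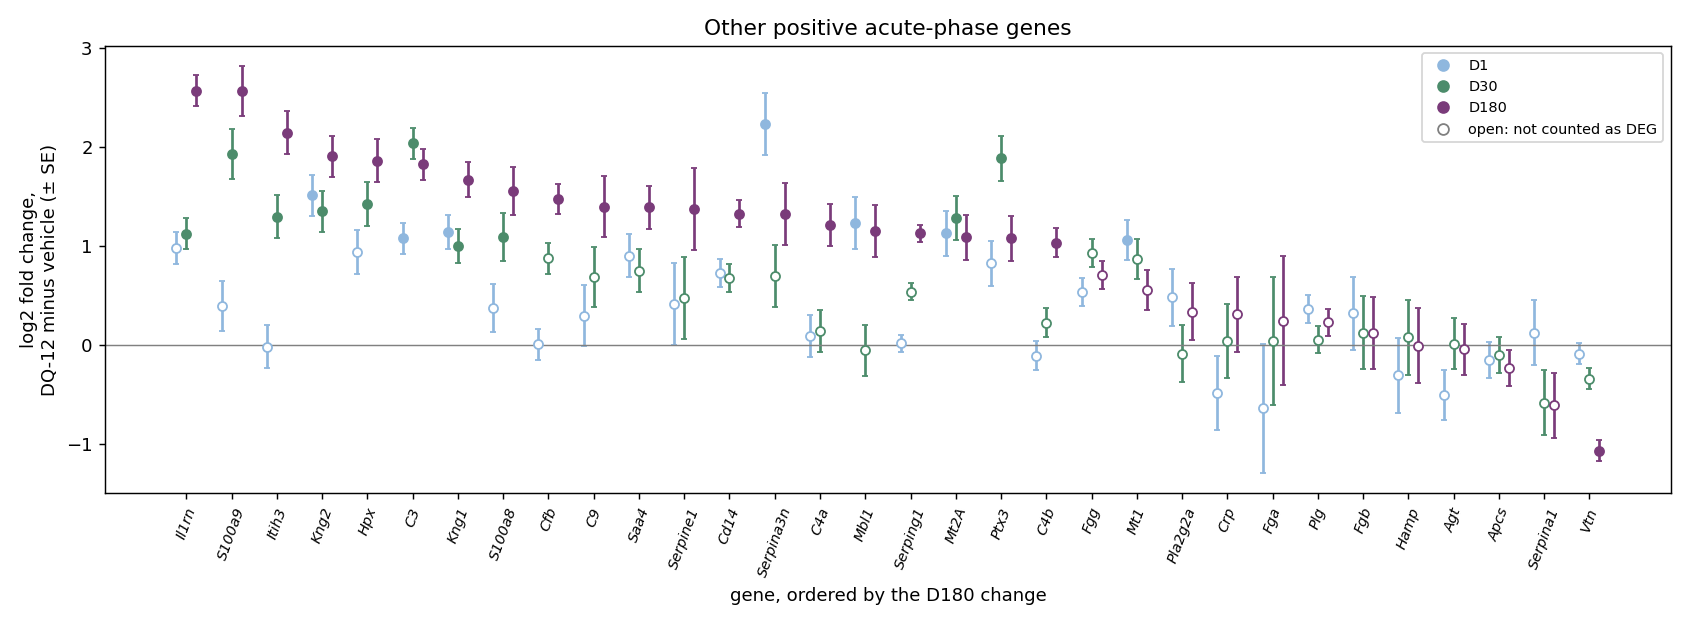
Log2 fold change with its standard error (vertical axis) of the 32 other positive acute-phase genes tested, at D1, D30 and D180, ordered by the D180 difference. Filled points were counted as DEGs, 20 of them above and 1 below 0 at D180.

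Among 10 genes of negative acute-phase proteins, whose blood levels fall in inflammation, Apoa2 was lower at D1 (-1.07, SE 0.34, adjusted p = 0.0309, limma) and Tf, which encodes transferrin, higher at D180 (1.17, SE 0.18, adjusted p = 9.67e-06). Of 26 genes for inducers and their signaling, 1, 2 and 3 were higher DEGs and 0 were lower, or 3.85, 7.69 and 11.5% higher against 2.02, 0.915 and 2.86% of all genes, so that the share at D1 was near that of all genes. Osm, an interleukin-6 family cytokine, rose at D1 (1.66, SE 0.20, adjusted p = 4.21e-07, limma), D30 (1.12, SE 0.20, adjusted p = 0.000636) and D180 (1.77, SE 0.20, adjusted p = 1.10e-07). Tnf rose at D30 (1.34, SE 0.19, adjusted p = 2.81e-05, limma) and D180 (1.31, SE 0.19, adjusted p = 7.03e-06), and Il1b at D180 (1.17, SE 0.20, adjusted p = 7.46e-05). For Il6 itself, none of the 36 arrays was well above background and no fold is given. Of 21 receptors and partners of the 10 proteins, 0, 1 and 4 were DEGs, all higher. Another 3 were lower at D180 at an adjusted p below 0.05 (limma), each by less than 2-fold. Itih3 was the 1 at D30 (1.30, SE 0.22, adjusted p = 0.000223, limma). At D180 Itih3 was joined by Mmp9, the protease that lipocalin 2 can bind (2.00, SE 0.48, adjusted p = 0.00289, limma), Hmox1, the heme oxygenase (1.55, SE 0.19, adjusted p = 2.05e-07), and Cd14, the receptor served by Lbp (1.33, SE 0.14, adjusted p = 1.71e-08).

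Markers of the other cell types moved with exposure in part. Of all genes, 2.02, 0.915 and 2.86% were higher DEGs at D1, D30 and D180. None of the 8 hepatocyte markers was a DEG at any time, and their summed log2 signal was 6.64 to 8.72 over all arrays, with at most 5 of the 8 well above background in any group, against 19.63 to 19.97 for the lung markers. Of 10 neutrophil markers, 2, 3 and 5 were higher DEGs (Cd177 1.23, 3.19 and 2.83 at the 3 times, Csf3r 1.41 at D1, S100a8 1.1 at D30 and 1.56 at D180, and Cxcr2 1.55 at D180). Their summed level was 13.36 to 14.39 in vehicle and 13.80 to 14.92 in DQ-12 rats at D1, 13.05 to 14.15 and 14.71 to 16.05 at D30, and 13.22 to 14.11 and 15.71 to 16.18 at D180. Of 8 macrophage markers, 0, 3 and 4 were higher DEGs (Cd68 1.16 and Fabp4 1.12 at D30, and Cd68 1.55, Marco 2.62, Fabp4 2.53 and Itgam 2.19 at D180). None of the 8 was a lower DEG, but the lowest differences on this list were -0.46, -0.63 and -0.89 at the 3 times. Marco at D30 was at least 3.14-fold higher, with no vehicle array well above background. Their summed level was 12.67 to 13.25 and 13.00 to 13.36 at D1, 12.35 to 12.62 and 13.13 to 13.61 at D30, and 12.77 to 13.31 and 14.11 to 14.75 at D180. Hp followed the neutrophil sum (r 0.87) and the macrophage sum (0.86) over the 36 arrays, but only with 0.12 and 0.29 within groups. Over the 10 genes, the r within groups ran from -0.12 (A2m) to 0.37 (Cp) with the neutrophil sum. With the macrophage sum it ran from -0.16 (Cp) to 0.55 (Itih4), with Orm1 at 0.43. Of 8 airway secretory markers, 1 was a higher DEG at each time (Muc5b 1.17 at D1, Bpifb1 1.62 at D30 and 2.80 at D180). The median difference of these 8 was -0.24, -0.29 and -0.09, and the lowest -0.57, -0.42 and -0.79. Their median sum in vehicle and DQ-12 rats was 18.05 and 17.79 at D1, 17.99 and 17.77 at D30, and 17.72 at D180 in both. Of 8 alveolar type 2 markers, 0 were DEGs. At an adjusted p below 0.05 (limma), 1, 3 and 4 were higher, with 1 lower at D1, each by less than 2-fold. Their sum at D30 was 19.64 to 19.76 in vehicle and 19.85 to 19.93 in DQ-12 rats. Of 7 fibroblast markers, 1 was a higher DEG at D1 (Lum 1.05). S100a8 and S100a9 stand on both the neutrophil list and the acute-phase list. The part of these cells in the members' differences was not tested.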

How the data were processed

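The authors' deposited array files (Agilent Feature Extraction 12.0.1.1, per the submitters' processing notes) give an intensity for each spot before and after background correction. In the table of log2 values that the authors deposited, corrected intensities were scaled to each array's 75th percentile and centered on the probe median, as recomputed here (median absolute difference 0.00177, r = 0.99997 over 1641055 values). The column medians of that table ran from -0.15 to 0.23, and it served as an alternative.

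Here the background-corrected intensity was put on the log2 scale, outlier spots (232 to 596 of 58717 per array) were left out, and spots of a probe were averaged. Probes brighter than 95% of the 308 negative control spots in 6 or more rats were quantile normalized, and the probe of highest mean signal stood for each gene. All 36 arrays entered 1 limma fit (version 3.58.1, statmod 1.5.0, R 4.3.3) with a mean for each of the 6 groups, without a batch term. This departs from the study, whose methods include a batch correction but do not name its variable, and slide and scan date were tried as alternatives. Replicates were separate rats, and the number of arrays limits the precision. Where no vehicle array was well above background, a gene was given as a bound, from the DQ-12 mean against, per array, the higher of the dim probe and the lowest signal well above background. The model was tested on simulated data with known changes. The simulated arrays held no slide or scan date effect, so this does not bear on leaving out a batch term. With slide or scan date as a random block, the correlation within blocks was 0.39 and 0.25.

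The 10 genes and all gene lists were chosen with earlier results of these data known. All 10 genes and every probe of theirs are named, of each other list the 4 DEGs of largest difference at each time, and for each of the 10 the 3 most correlated other genes, of which 1 is not reported here. LOC691143, Fga, Fgb, Fgg, Crp, Saa4 and Il6 were named beside this rule, after their values were seen. Alternatives changed the background correction, normalization, filter, probe summary, batch terms, samples in the fit, moderation, replicate block and fold threshold, and left out each rat in turn. Promoters came from RefSeq (GRCr8) with the bases after the start site left out, and promoters of Hp, Lbp and A2m, protein sequences and a genome were not used here. Figures were drawn in Python 3.11.15 with matplotlib 3.10.9.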

Additional observations from a re-analysis of the deposited data

Results flagged for a closer look

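In 7 of the 60 group values of the 10 genes, 1 rat lay far from the other 5, where chance alone marks about 1 in 20 groups. Saal1 in vehicle D30 replicate 6 was 8.79, with the next rat at 9.39. Lcn2 was 7.06 in vehicle D30 replicate 3 and 12.26 in vehicle D180 replicate 2. A2ml1 was 2.15 in vehicle D30 replicate 5, which was not well above background, and 3.42 in vehicle D180 replicate 6. Itih1 in vehicle D1 replicate 5 was 7.80, with the next rat at 3.55. Lbp in DQ-12 D1 replicate 5 was 8.47, with the next rat at 8.89.

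Of the 32 other positive acute-phase genes, 8 passed a test of the change in their DQ-12 difference between times (limma, interaction contrast, adjusted over all genes, at least 2-fold), in 11 of the contrasts. The list was chosen with earlier results of these data known, and these tests were not run under the alternatives. Between D180 and D1 the difference grew by 2.17 for S100a9 (adjusted p = 0.000304, limma), 2.16 for Itih3 (adjusted p = 5.23e-05), 1.59 for Il1rn (adjusted p = 4.91e-05), 1.47 for Cfb (adjusted p = 9.73e-05), 1.18 for S100a8 (adjusted p = 0.0424), 1.14 for C4b (adjusted p = 0.00101), 1.12 for C4a (adjusted p = 0.0276) and 1.11 for Serping1 (adjusted p = 1.55e-06). C4a and C4b are close copies that may share signal. Between D30 and D1 it grew by 1.54 for S100a9 (adjusted p = 0.0156, limma) and 1.32 for Itih3 (adjusted p = 0.0157), and between D180 and D30 by 1.45 for Il1rn (adjusted p = 0.00228). Of all genes, 1.55% passed between D180 and D1, 0.944% between D30 and D1 and 0.138% between D180 and D30. The tests of the D1 differences rest on groups that mostly lay on separate scan dates.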

How the results depend on the processing

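Signs were checked for the 10 genes and for the 4 largest DEGs of each other list and time. No difference counted as a DEG among them changed sign under any alternative run. Of those not counted, Cp at D30 (0.10) fell to between -0.04 and -0.05 with slide or scan date as a fixed block, and Itih1 and A2ml1 at D1, too dim for a fold, also changed sign under some alternatives. Of the counts, 108 of 120 stayed within 1.5 times under the alternatives, and 105 of 108 when a rat was left out. With slide as a fixed block, the members counted as DEGs were 2 at D1 and 4 at D180, and the other positive acute-phase genes 3 at D1 and 9 at D180, where the main number was 21. With scan date as a fixed block, they were 2 and 0 at D1, a comparison that then rests on 1 vehicle rat. At a fold change of 1.5 the other positive genes at D1 numbered 12. Some single genes of the other lists also lost their call. Apoa2, Lum and Muc5b at D1 did so in 5 of 13, 7 of 13 and 8 of 12 alternatives, and Fabp4 at D30 in 6 of 13. With 1 rat left out, these 4 genes did so in 4, 4, 2 and 1 of 12 runs. Others lost their call less often, among them Mbl1 at D1 and Mmp9 at D180 in 3 of 13 alternatives. Itih3 did so in 2 of 13 at D30 and 1 of 13 at D180, with lowest differences of 0.47 and 0.82. The lowest difference was 0.63 for Hpx at D30, and 0.78 for Mmp9 and 0.49 for S100a8 at D180. In vehicle rats, 75th percentile scaling and the deposited log2 values each gave 3 members between D30 and D1 (Saal1, Orm1 and A2ml1) and 2 between D180 and D1 (Saal1 and A2m), and the compared groups alone gave 2 (Saal1 and Orm1) between D30 and D1. No vehicle array was well above background for A2ml1 at D1 or D30, or for Orm1 at D30, so their changes rest on signals near background. The cause of these changes was not tested. Leaving out 1 rat gave 4 to 5 members at D1, 3 to 4 at D30 and 7 to 8 at D180, and 7 to 8, 8 to 11 and 17 to 21 other positive genes. In vehicle rats it gave 1 to 2 members between D180 and D1 (2 without vehicle D180 replicate 1) and 0 to 1 between D180 and D30 (A2m without vehicle D30 replicate 1 or vehicle D180 replicate 3). With the replicate number as a block, the members counted as DEGs were 4, 4 and 7 and the other positive genes 7, 10 and 21, and in vehicle rats 1, 1 and 0 members passed, all as without it. Rats of the same number varied together little (pairing r from -0.13 to 0.22), and no pairing was used, although this check cannot exclude one. Vehicle times could not be fitted with slide or scan date as fixed blocks, since none held more than 1 time, and A2ml1 was not kept by the filter on probes well above background. Among the 10 genes, dim signals near background limit the size of the differences of Orm1, Itih1, A2m and A2ml1.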

Other observations

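The step within groups seen for Lcn2 was looked for in all genes, after its values were seen. Of 23734 genes measured on every array, Lcn2 was the 1 gene whose widest step between neighboring rats was at least 3 (log2) in each of the 6 groups. The smallest of its 6 widest steps was 3.27, against a median of 0.16 over all genes and 2.19 for the next gene. Its deviations within groups ran highest with Il17ra (r 0.61), Ticam1 (0.59) and RGD1563400 (0.58), given as a description over 36 arrays. They are the highest values picked from all genes, and the cause of the steps was not tested. For Itih1, with its single high vehicle rat at D1, the same measure was highest for Prame (0.85), LOC102550512 (0.79) and Pip (0.79).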
